A study of Mus musculus with 6 samples.

Results

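The Myc, Max and Mxd network is the set of transcription factors that share Max as a partner, and 10 of its genes were followed here: Myc, Mycn and Mycl, which encode the activating Myc proteins, Max itself, the repressing partners Mxd1, Mxd3, Mxd4, Mxi1 and Mnt, and Mga. They were chosen by gene symbol, with earlier results of these data known. All 10 were found among the 22332 symbols of the table, and all 10 passed the filter on low counts. The cells were CGR8, an established line of mouse embryonic stem cells grown on gelatin with LIF and 10% fetal bovine serum, and their total RNA was sequenced after removal of rRNA. The 3 siRSL24D1 libraries came from cells that received an siRNA pool against Rsl24d1, and the 3 siCtrl libraries from cells that received a non-targeting pool, both collected after 48 hours. The labels name no other allele or agent, untransfected cells were not analysed here, and all libraries come from 1 cell line.

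Myc proteins bind DNA as heterodimers with Max, most often at the E-box CACGTG, and activate genes of growth, nucleotide supply and ribosome production. The Mxd proteins, Mxi1 and Mnt compete for Max, bind the same sites and recruit the Sin3 corepressor with its histone deacetylases, so the balance of partners sets the output of shared target genes. Mga pairs with Max inside a non-canonical Polycomb complex that keeps germ cell genes silent in mouse embryonic stem cells. In these cells Myc and Mycn are largely redundant, and loss of both lowers protein synthesis and halts growth while pluripotency is kept. Rsl24d1 encodes a protein needed to assemble the large subunit of ribosomes, so the comparison asks how these regulators of ribosome production stand when that assembly factor is reduced.

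Library totals lay between 30943635 and 35214000 estimated counts. Rsl24d1 was measured at 53.8, 55.6 and 52.1 CPM (counts brought to a common library size, with TMM scaling) in the siRSL24D1 libraries, against 99.4, 102.7 and 97.9 CPM in the siCtrl libraries. The fold was 0.538. Of 10 listed stem cell markers, all tested, 2 were higher and 5 were lower, and their summed level was 2855 to 2950 CPM in siRSL24D1, against 3210 to 3531 CPM in siCtrl. None of the marker lists had a gene at 0 in all libraries, and of all genes tested 21.2% were higher and 20.0% lower. Markers of other cells were also read: the summed level was 11.6 to 17.5 CPM in siRSL24D1 against 2.45 to 3.51 CPM in siCtrl for 7 markers of the 2-cell-like state (6 tested, 5 higher, 0 lower), and 68.7 to 73.3 CPM against 43.2 to 47.0 CPM for 6 neural markers (5 tested, 1 higher, 1 lower). It was 36.9 to 41.8 CPM in siRSL24D1 against 39.7 to 43.5 CPM in siCtrl for 7 primitive endoderm markers (6 tested, 2 higher, 2 lower), 87.3 to 90.6 CPM against 87.4 to 89.9 CPM for 7 trophoblast markers (6 tested, 3 higher, 1 lower), and 118.8 to 143.8 CPM against 120.03 to 154.1 CPM for 7 fibroblast markers (7 tested, 2 higher, 2 lower). The part of these cells in the results below was not tested, and in bulk RNA more cells with a transcript and more transcript per cell cannot be told apart.

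Of the 10 network genes, 5 rose in siRSL24D1 (Mxd4, Mycn, Myc, Mxd1 and Max), 1 fell (Mxi1) and 4 did not pass the test (Mycl, Mxd3, Mnt and Mga). A gene was called at an adjusted p under 0.05, over all 15084 genes tested. Among all genes tested, 21.2% were called higher and 20.0% lower, so that 41.2% were called in either direction. The members' median log2 fold change was 0.15, against 0.02 over all genes tested. The 6 called members were also the 6 whose groups did not overlap, a separation seen in 53.0% of all genes tested (26.8% with siRSL24D1 higher). The same 6 calls were made under each of the 18 alternative settings tried, and the plot of the change of each gene shows how far each estimate moved.

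**Figure D1:**
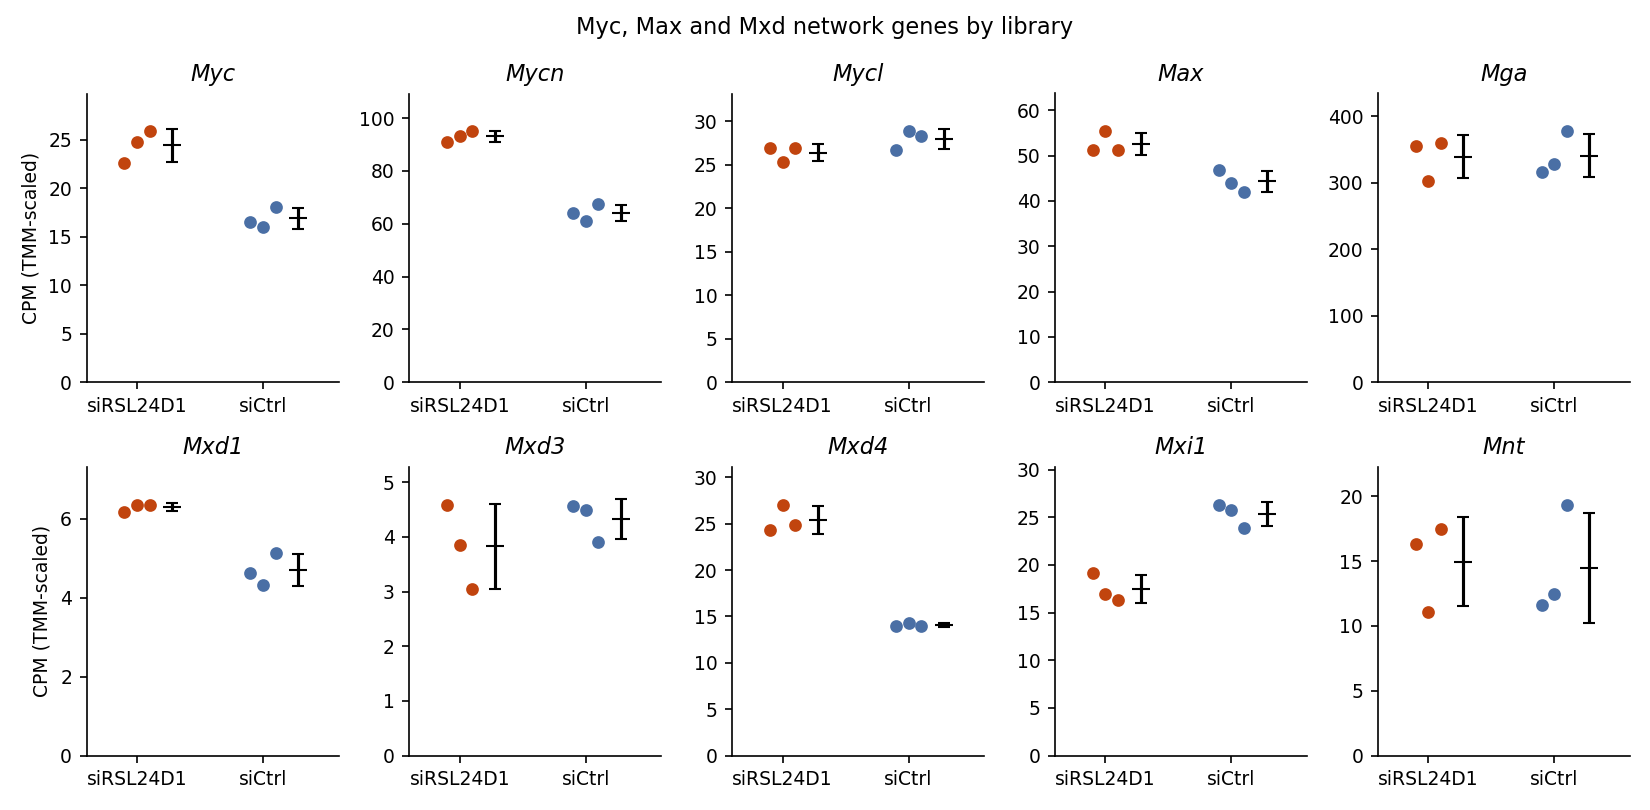
TMM-scaled CPM of the 10 network genes in each library, with siRSL24D1 on the left and siCtrl on the right of each panel. Points are libraries, and the bars beside them are the mean and SD of 3 libraries. Each axis starts at 0. The groups are separate for Myc, Mycn, Max, Mxd1, Mxd4 and Mxi1 and overlap for Mycl, Mga, Mxd3 and Mnt.

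Mycn, the family member that drives growth in many embryonic tissues, was the most abundant of the Myc paralogs. It lies on chromosome 12 (12936093 to 12941914, minus strand, GRCm38). Mycn was measured at 90.9, 93.2 and 95.0 CPM in siRSL24D1, against 64.0, 61.2 and 67.3 CPM in siCtrl. All siRSL24D1 libraries stood above all siCtrl libraries, and the spread within each group was small beside the gap. Mycn thus rose 1.45-fold, by 0.54 ± 0.05 on the log2 scale (SE, adjusted p = 0.000121), and by 0.50 to 0.56 over the alternatives.

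The promoter of Mycn is shown because this gene carries the largest part of the Myc-family transcripts and was the most significant of the Myc genes. It is the RefSeq window of 250 bases before to 50 bases after the start, chr12:12941787-12942086, minus strand, GRCm38.p6. Capitals mark the letters TTTGGCGC, a form of the site bound by E2F cell cycle factors, searched on both strands; these letters were chosen after the window had been seen.
Mycn: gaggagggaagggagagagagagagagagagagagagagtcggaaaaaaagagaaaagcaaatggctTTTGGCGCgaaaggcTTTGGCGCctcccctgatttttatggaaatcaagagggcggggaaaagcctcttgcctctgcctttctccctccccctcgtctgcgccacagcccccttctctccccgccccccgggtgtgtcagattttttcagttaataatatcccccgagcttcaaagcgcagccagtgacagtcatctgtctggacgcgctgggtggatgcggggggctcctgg
The window holds 2 matches, starting 183 and 168 bases before the start site, and no CACGTG. TTTGGCGC is present in 0.51% of the 32851 promoter windows of the same table. A match describes the letters and says nothing of binding.

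Myc, the founding member of the family and a target of LIF and Stat3 signalling in mouse embryonic stem cells, also rose, at a lower level than Mycn. Myc (chromosome 15, 61985391 to 61990374, plus strand) was at 22.6, 24.7 and 25.9 CPM in siRSL24D1, against 16.6, 16.04 and 18.1 CPM in siCtrl. The lowest siRSL24D1 library stood above the highest siCtrl library. The rise was 1.44-fold, or 0.53 ± 0.07 in log2 (SE, adjusted p = 0.000825), with a range of 0.49 to 0.58 over the alternatives.

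Mycl, the third paralog, which is dispensable in mouse development, did not pass the test. Mycl (chromosome 4, 122995652 to 123002485, plus strand) was at 27.0, 25.3 and 27.0 CPM in siRSL24D1, against 26.7, 28.9 and 28.3 CPM in siCtrl, and the groups overlapped. Its log2 fold change was -0.08 ± 0.05 (SE, adjusted p = 0.259), and no alternative brought it past the threshold (adjusted p = 0.139 to 0.519).

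The paralogs therefore differed in their ratios. Ratios of estimated counts within a library need no scaling between libraries, and 6 of them were formed between members after the changes had been seen. Their p values therefore describe the data and are no independent test, and the adjustment covers these 6 ratios alone. Mycn over Myc was 4.02, 3.77 and 3.67 in siRSL24D1, against 3.86, 3.81 and 3.72 in siCtrl, a difference of 0.01 on the log2 scale with SDs of 0.07 and 0.03 (two-sided exact permutation p = 0.9). The ratio of the 2 genes differed by less than the spread between libraries. Mycn over Mycl was 3.37, 3.69 and 3.53 in siRSL24D1, against 2.399, 2.12 and 2.38 in siCtrl, a log2 difference of 0.62. Myc over Mycl was 0.839, 0.979 and 0.961 in siRSL24D1, against 0.621, 0.555 and 0.639 in siCtrl, a log2 difference of 0.61. For both ratios with Mycl the groups did not overlap, and the exact permutation p was 0.1, the smallest that 3 against 3 libraries can give (0.12 after adjustment over the 6 ratios).

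Scaled by exon length, Mycn made up 66.1%, 66.1% and 65.4% of the Myc-family counts in siRSL24D1, against 61.9%, 60.1% and 61.3% in siCtrl. The mean difference was 4.75 percentage points (exact permutation p = 0.1). The share of Mycl was 15.03%, 13.8% and 14.2% in siRSL24D1, against 19.8%, 21.8% and 19.8% in siCtrl, and that of Myc was 18.8%, 20.1% and 20.4% against 18.4%, 18.1% and 18.9%. The shares of Mycn and Mycl did not overlap between the groups, while those of Myc did. With no length scaling the shares of Myc were separate too, at 16.1%, 17.3% and 17.5% in siRSL24D1, against 15.5%, 15.1% and 15.9% in siCtrl. The summed level of the 3 paralogs was 50.4 ± 1.40 CPM per kilobase in siRSL24D1 and 37.4 ± 1.51 CPM per kilobase in siCtrl (SD, n = 3 each), a ratio of 1.35 (exact permutation p = 0.1).

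Max, the common partner with which the Myc proteins bind DNA, also rose. Max (chromosome 12, 76937269 to 76962201, minus strand) was at 51.3, 55.4 and 51.1 CPM in siRSL24D1, against 46.9, 43.9 and 42.1 CPM in siCtrl. The groups were separate, with a narrow gap between siRSL24D1 3 and siCtrl 1. Max rose 1.19-fold, with a log2 fold change of 0.25 ± 0.06 (SE, adjusted p = 0.00888). Over the alternatives it was 0.20 to 0.29, and the highest adjusted p was 0.0465, without siCtrl 2. Mycn over Max was 1.77, 1.68 and 1.86 in siRSL24D1, against 1.37, 1.39 and 1.601 in siCtrl, so the ratio was higher in every siRSL24D1 library, by 0.29 on the log2 scale (exact permutation p = 0.1). Isoforms of Max, some of which lack parts of the protein, cannot be told apart in counts per gene.

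Mxd4, a repressing partner usually found in cells that leave the cycle, rose most among the 10 genes. Mxd4 (chromosome 5, 34173883 to 34187720, minus strand) was at 24.3, 27.05 and 24.8 CPM in siRSL24D1, against 13.9, 14.3 and 14.0 CPM in siCtrl. The siCtrl libraries lay close together, and every siRSL24D1 library was well above them. This 1.81-fold rise was 0.85 ± 0.06 in log2 (SE, adjusted p = 5.1e-05) and 0.80 to 0.88 over the alternatives. An antisense transcript, Gm42846, overlaps 13.2% of the exon bases of Mxd4, and whether the counting used strand is not given in the sources used here.

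Mxd1, the first known member of the Mxd family and a marker of differentiation in several lineages, rose at a low level. Mxd1 (chromosome 6, 86647042 to 86669161, minus strand) was at 6.18, 6.36 and 6.35 CPM in siRSL24D1, against 4.63, 4.33 and 5.13 CPM in siCtrl, which rests on 194 to 223 and 141 to 175 estimated counts per library. The groups did not overlap. Mxd1 rose 1.34-fold, or by 0.42 ± 0.10 in log2 (SE, adjusted p = 0.00859). Mxd4 over Mxd1 was 3.93, 4.26 and 3.91 in siRSL24D1, against 3.01, 3.30 and 2.72 in siCtrl, a log2 difference of 0.43 (exact permutation p = 0.1).

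Mxi1, a repressing partner that hypoxia-inducible factor activates in human cells, was the 1 member that fell. Mxi1 (chromosome 19, 53310518 to 53375810, plus strand) was at 19.1, 16.9 and 16.4 CPM in siRSL24D1, against 26.3, 25.8 and 23.9 CPM in siCtrl. Every siRSL24D1 library was below every siCtrl library. In log2 the change was -0.54 ± 0.07 (SE, adjusted p = 0.000824), and -0.60 to -0.49 over the alternatives. The gene has 3 RefSeq start windows, and 2 of them hold the core ACGTG of the site bound by hypoxia-inducible factor, a core present in 19.6% of all windows and also in those of Mga, Max, Mxd4 and Mnt. Levels from the separate start sites cannot be told apart in counts per gene.

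Mxd4 and Mxi1 moved in opposite directions, which shows most directly in their ratio. Mxd4 over Mxi1 was 1.27, 1.598 and 1.52 in siRSL24D1, against 0.53, 0.555 and 0.583 in siCtrl. Mxd4 had more counts, not scaled for length, than Mxi1 in each siRSL24D1 library and fewer in each siCtrl library. The difference was 1.39 on the log2 scale, with SDs of 0.17 and 0.07 (exact permutation p = 0.1; 0.12 after adjustment over the 6 ratios). Per exon length, Mxd4 took 35.8%, 43.1% and 39.2% of the Mxd and Mnt counts in siRSL24D1, against 24.8%, 25.3% and 23.3% in siCtrl, and Mxi1 took 16.4%, 15.7% and 15.1% against 27.2%, 26.5% and 23.3%. Per kilobase, the siCtrl levels of the 2 genes overlapped with all exons as the length, while Mxi1 was the higher with the longest transcript.

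Mxd3, a member that unlike its relatives is expressed in the S phase of dividing cells, did not pass the test. It lies on chromosome 13 (55325168 to 55329823, minus strand), and 7.91% of its exon bases overlap Prelid1 on the other strand. Prelid1 had 36860 estimated counts over the 6 libraries, so without a known strand setting the counts of Mxd3 are uncertain. Mxd3 was at 4.59, 3.85 and 3.04 CPM in siRSL24D1, against 4.57, 4.49 and 3.898 CPM in siCtrl. A log2 fold change of -0.18 ± 0.16 was estimated (SE, adjusted p = 0.401), on 101 to 151 estimated counts per library.

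Mnt, the most widely expressed repressing partner, varied between libraries of the same group. It lies on chromosome 11 (74830920 to 74845725, plus strand). Mnt was at 16.3, 11.1 and 17.5 CPM in siRSL24D1, against 11.6, 12.5 and 19.3 CPM in siCtrl. The lowest value was that of siRSL24D1 2 and the highest that of siCtrl 3. The estimate was 0.04 ± 0.22 in log2 (SE, adjusted p = 0.898), and its sign changed with the library left out.

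Mga, which carries a T-box domain beside the one that binds Max, was the longest of the 10 genes, with 13931 exon bases on chromosome 2 (119897228 to 119969581, plus strand). Mga was at 355.7, 302.2 and 360.6 CPM in siRSL24D1, against 317.1, 328.1 and 377.9 CPM in siCtrl. The groups overlapped, and again siRSL24D1 2 was lowest and siCtrl 3 highest. Its change was -0.01 ± 0.09 in log2 (SE, adjusted p = 0.959). After a correction of each library for transcript length it was -0.15 (adjusted p = 0.0129), the 1 setting, with and without the replicate number as a block, under which Mga passed.

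**Figure D2:**
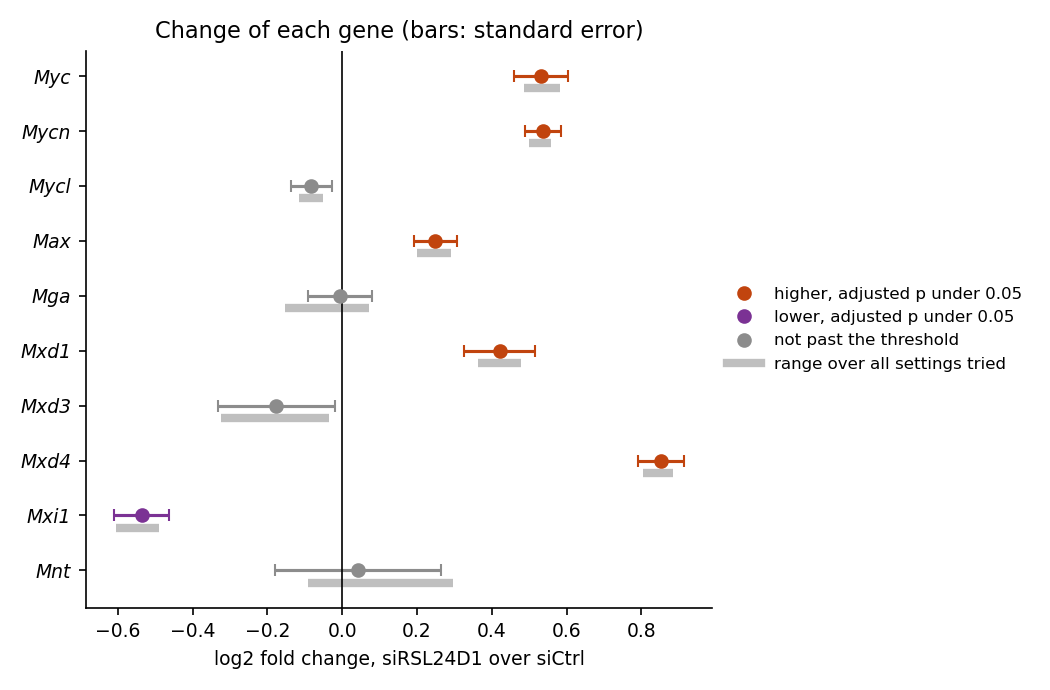
Log2 fold change of each network gene, siRSL24D1 over siCtrl. Points with bars are the estimates with their standard errors, coloured by the call at an adjusted p under 0.05, and the grey band below each is the range over all settings tried. The bands of Myc, Mycn, Max, Mxd1 and Mxd4 stay above 0 and that of Mxi1 below it, while those of Mga and Mnt cross 0.

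For a rough comparison between genes, levels were divided by the length of the exons, which takes no account of the isoforms used. In siRSL24D1 the order was Mycn at 33.2 ± 0.73, Max at 26.9 ± 1.23, Mga at 24.4 ± 2.33, Myc at 9.98 ± 0.68, Mycl at 7.22 ± 0.26, Mxd4 at 6.54 ± 0.38, Mnt at 3.26 ± 0.74, Mxd3 at 2.88 ± 0.58, Mxi1 at 2.62 ± 0.22 and Mxd1 at 1.35 ± 0.02 CPM per kilobase (SD, n = 3). Of these neighbours, Mycl and Mxd4, Mnt and Mxd3, and Mxd3 and Mxi1 overlapped between libraries. In siCtrl the order was Mga at 24.5 ± 2.33, Mycn at 22.9 ± 1.10, Max at 22.6 ± 1.24, Mycl at 7.64 ± 0.31, Myc at 6.91 ± 0.43, Mxi1 at 3.81 ± 0.19, Mxd4 at 3.62 ± 0.05, Mxd3 at 3.25 ± 0.28, Mnt at 3.15 ± 0.92 and Mxd1 at 1.01 ± 0.09 CPM per kilobase. Mga, Mycn and Max overlapped there, as did Mycl and Myc, Mxi1 and Mxd4, and Mxd3 and Mnt. The place of Mxi1 in siRSL24D1 depends on the length used: with its longest transcript in place of all exons it was at 3.47 CPM per kilobase, ahead of Mnt and Mxd3.

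As a sum, the repressing partners took a smaller share of the Max partners in siRSL24D1. The summed level of Mxd1, Mxd3, Mxd4, Mxi1 and Mnt was 17.5, 16.2 and 16.3 CPM per kilobase in siRSL24D1, against 14.5, 14.6 and 15.4 CPM per kilobase in siCtrl, a ratio of 1.12. Their share in the transcripts of the 8 Max partners other than Mga was 26.3%, 24.4% and 23.9% in siRSL24D1, against 28.2%, 28.7% and 28.3% in siCtrl. Every siRSL24D1 library had a smaller share than every siCtrl library, with a mean difference of -3.55 percentage points (exact permutation p = 0.1, the smallest possible). With the longest transcript the difference was -4.16 points and with no length scaling -4.50 points.

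**Figure D3:**
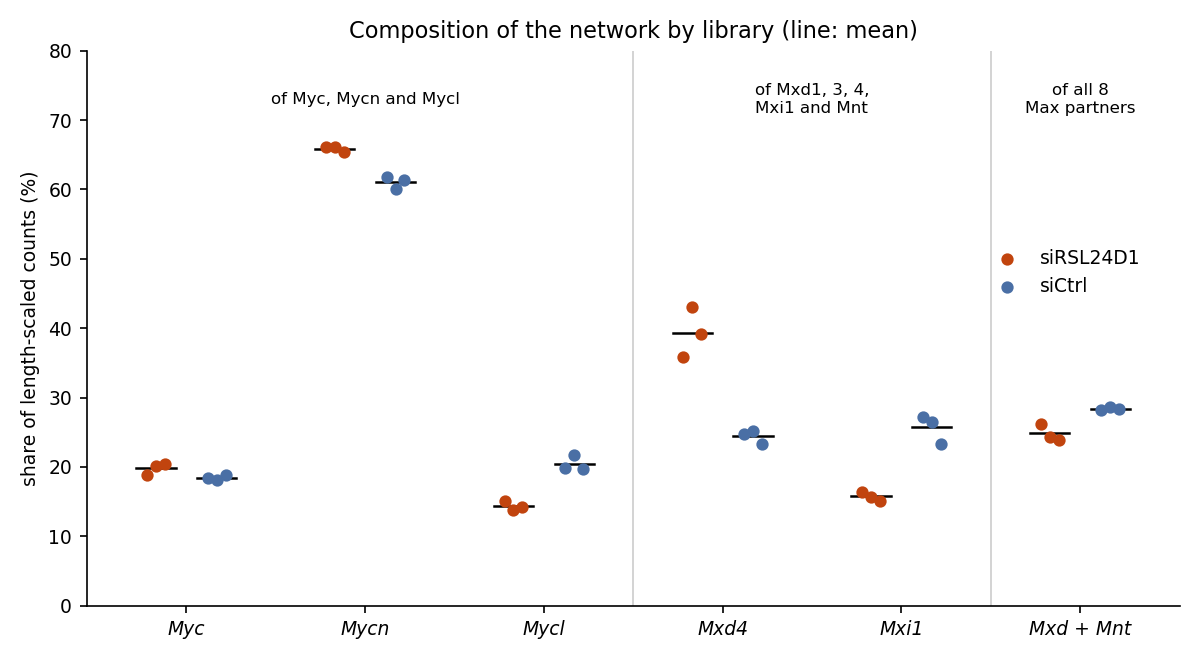
Share of length-scaled estimated counts, in percent, per library, with siRSL24D1 left of siCtrl. The 3 blocks give Myc, Mycn and Mycl within the Myc family, Mxd4 and Mxi1 within the Mxd and Mnt genes, and the Mxd and Mnt genes within the 8 Max partners. Points are libraries and lines are means. The groups are separate for each share other than that of Myc.

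Of the 11 RefSeq promoter windows of 9 members, 3 held the E-box CACGTG, which is its own reverse complement: those of Mxd4, Max and Mnt. Myc had no window among them. The E-box was present in 7.15% of all 32851 windows. These windows are shown because the 3 genes share the letters that the network's own dimers bind, while Mxd4 and Max rose and Mnt did not pass the test. They are chr5:34187661-34187960 (minus strand) for Mxd4, chr12:76962199-76962498 (minus strand) for Max and chr11:74830674-74830973 (plus strand) for Mnt, in GRCm38.p6, with the E-box in capitals.
Mxd4: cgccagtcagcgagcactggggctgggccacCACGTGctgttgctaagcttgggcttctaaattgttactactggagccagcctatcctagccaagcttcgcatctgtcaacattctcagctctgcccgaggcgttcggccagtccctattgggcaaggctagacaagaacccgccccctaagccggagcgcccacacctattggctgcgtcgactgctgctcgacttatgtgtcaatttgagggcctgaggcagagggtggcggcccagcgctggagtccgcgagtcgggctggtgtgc
Max: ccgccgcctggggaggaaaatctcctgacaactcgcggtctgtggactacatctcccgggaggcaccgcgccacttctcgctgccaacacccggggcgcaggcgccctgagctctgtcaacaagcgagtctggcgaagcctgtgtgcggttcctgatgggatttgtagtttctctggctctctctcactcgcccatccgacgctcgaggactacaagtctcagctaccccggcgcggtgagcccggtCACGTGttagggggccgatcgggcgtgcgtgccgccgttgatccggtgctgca
Mnt: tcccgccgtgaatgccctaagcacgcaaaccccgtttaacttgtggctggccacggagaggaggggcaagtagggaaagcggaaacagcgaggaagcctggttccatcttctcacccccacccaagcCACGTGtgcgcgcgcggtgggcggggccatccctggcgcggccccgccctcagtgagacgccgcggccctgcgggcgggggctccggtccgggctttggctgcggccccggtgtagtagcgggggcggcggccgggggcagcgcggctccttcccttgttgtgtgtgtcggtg
The E-box starts 219 bases before the start site in Mxd4, 3 bases before it in Max and 123 bases before it in Mnt. Each match also contains ACGTG on both strands. Mycn, Mycl, Mxd1, Mxd3, Mxi1 and Mga have no CACGTG in these windows.

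Genes commonly listed as activated by Myc rose more often than they fell. Of 51 tested, 23 rose (45.1%, against 21.2% of all genes tested) and 3 fell (5.9%, against 20.0%). The median log2 fold change was 0.15, against 0.02 over all genes tested. The list came from general knowledge, with earlier results of these data known. Its shares therefore describe the data and are no independent test. Many of the listed genes encode nucleolar proteins and assembly factors of the ribosome. Srm, the spermidine synthase, averaged 81.3 ± 2.27 CPM in siRSL24D1 and 61.6 ± 2.35 CPM in siCtrl (SD, n = 3 each), a log2 fold change of 0.40 (adjusted p = 0.000367). Rrp12, a factor of ribosomal subunit export, rose by 0.38 on the log2 scale. Tfrc, the transferrin receptor, was lower at -0.39, and Tert, the catalytic subunit of telomerase, at -0.37. The remaining gene that fell was Impdh2, an enzyme of guanine nucleotide synthesis, at -0.18; it and the next 6 genes were chosen after their values were seen. Its call was lost without siCtrl 1 or siCtrl 2 (adjusted p = 0.0601 and 0.0633). Polr1b, a subunit of RNA polymerase I, rose by 0.28, Ubtf, its upstream binding factor, by 0.28, Odc1, the ornithine decarboxylase, by 0.27 and Nop56, a snoRNP core protein, by 0.20. Ncl and Npm1, which encode abundant nucleolar proteins, were at 0.05 and -0.04 and did not pass. The number that rose was 17 to 30 over the settings that kept the threshold.

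Genes commonly listed as repressed by Myc moved both ways. Of 11 tested, 5 rose (45.5%) and 3 fell (27.3%), against 21.2% and 20.0% of all genes tested, at a median of 0.16. Btg2, an antiproliferative gene, rose by 0.53 and Gata6, an endoderm factor, by 0.50, while Ndrg2 was at -1.39 and Ndrg1 at -0.89. The cell cycle inhibitors were split, with Cdkn1b (p27) at -0.65, Cdkn1a (p21) at 0.41 and Cdkn2b (p15) at 0.38. Cdkn1c, at 0.14, did not pass (adjusted p = 0.36). These inhibitors and Gadd45a, at 0.23, were named after their values were seen. Cdkn2b lost its call without siRSL24D1 2 or siRSL24D1 3 (adjusted p = 0.0549 and 0.0518). Btg2, Cdkn1a and Gadd45a are also known targets of p53, and Ndrg1 of hypoxia. Gata6 lost its call without any 1 library other than siRSL24D1 2 (adjusted p = 0.0595 to 0.151), with upper quartile scaling, by DESeq2 and by limma-voom (0.0522 to 0.105), and without siRSL24D1 3 the number that rose was 3.

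Mlx is the partner of a parallel arm, in which MondoA (Mlxip) and ChREBP (Mlxipl) sense glucose metabolites. Mlx was at 0.03 and Mlxip at 0.08 on the log2 scale and neither passed, while Mlxipl was at -0.49 (adjusted p = 0.0578). Txnip, a direct MondoA target that restrains glucose uptake, was at 279 ± 14.7 CPM in siRSL24D1 and 567 ± 46.8 CPM in siCtrl, a log2 fold change of -1.02 (adjusted p = 3.9e-05). Arrdc4, its relative and also a MondoA target, was at -0.67. Among all genes tested, 20.0% fell and 21.2% rose. Of the 5 genes 2 fell and 0 rose by edgeR (0 rose also at an unadjusted p under 0.05, by DESeq2 and by limma-voom). Mlxipl passed as well, making 3 that fell, in 6 alternatives: DESeq2 size factors, upper quartile scaling, the replicate block, the length correction with and without that block, and without siCtrl 1 (adjusted p = 0.0218 to 0.0499). Of 4 further Myc-related symbols, Bmyc and Mycbp were tested and did not pass, Mycs had 8 counts in all libraries together, and Pvt1 is not a row of the table.

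Subunits of the Polycomb complex around Mga and Max were measured next. Of 11 tested, 3 rose (L3mbtl2, E2f6 and Tfdp1) and 0 fell by edgeR, at a median of 0.03. The share that rose was 27.3%, against 21.2% of all genes tested, of which 20.0% fell. The number that fell was also 0 at an unadjusted p under 0.05, by DESeq2 and by limma-voom, and 1 after the length correction. L3mbtl2, a histone-binding subunit, averaged 107.9 ± 3.43 CPM in siRSL24D1 and 84.5 ± 1.96 CPM in siCtrl, a log2 fold change of 0.35 (adjusted p = 0.000445). E2f6, a DNA-binding repressor, rose by 0.23. Pcgf6, the subunit that defines the complex, was at -0.06 and did not pass.

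Germ cell and meiosis genes, a class that this complex represses in mouse embryonic stem cells, went both ways. Of 19 tested, 7 fell (36.8%) and 3 rose (15.8%), against 20.0% and 21.2% of all genes tested, at a median of -0.09. Smc1b, a meiotic cohesin, was at 1.94 ± 0.14 CPM in siRSL24D1 and 5.83 ± 0.50 CPM in siCtrl, a log2 fold change of -1.59 (adjusted p = 5.9e-05). Sycp3, a protein of the synaptonemal complex, was at -1.08. Taf7l, a germ cell form of a TFIID subunit, rose by 0.92 and Hormad1, a protein of meiotic chromosome axes, by 0.50. The level of Taf7l was low, with 35, 58 and 38 estimated counts in siRSL24D1, against 20, 21 and 28 in siCtrl. The number that rose was 1 without siCtrl 1, siCtrl 2 or siRSL24D1 3. Taf7l lost its call without siCtrl 1, siCtrl 2 or siRSL24D1 2 (adjusted p = 0.0509 to 0.0544), and Hormad1 without siCtrl 1 or siRSL24D1 3 (0.0672 and 0.0583).

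Cofactors of the network were listed in 2 sets. Of 16 tested subunits of the Sin3 corepressor, 2 rose and 3 fell, at a median of -0.03, against 21.2% and 20.0% of all genes tested. Ing2, a reader of histone methylation, was at -0.31 and Brms1 at 0.30, a call lost without siCtrl 2 (adjusted p = 0.0549). Sin3a, the scaffold that Mxd proteins bind, was at -0.15, a call lost without any 1 library other than siRSL24D1 1 (adjusted p = 0.0567 to 0.110) and with library totals (0.0809). Suds3, a subunit of the complex, was at 0.13, a call lost without any 1 library (adjusted p = 0.0657 to 0.105), under DESeq2 size factors, upper quartile scaling or no filter, and by DESeq2 (0.0571 to 0.135). The counts of this list ranged from 0 to 2 higher and from 1 to 3 lower over the settings. Of 16 tested coactivators of Myc, 2 rose, Epc1 at 0.37 and Epc2 at 0.33, both subunits of the NuA4 acetyltransferase, and 0 fell (edgeR; 1 at an unadjusted p under 0.05, 0 by DESeq2 and by limma-voom). Without siCtrl 3 the number that fell was 2.

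Factors that control the stability of Myc proteins changed in both directions. Fbxw7, the ubiquitin ligase subunit that marks phosphorylated Myc and Mycn for degradation, averaged 62.3 ± 1.89 CPM in siRSL24D1 and 40.5 ± 3.81 CPM in siCtrl, a log2 fold change of 0.62 (adjusted p = 0.000318). Usp28, a deubiquitinase that counteracts this ligase on Myc, averaged 83.4 ± 7.59 CPM in siRSL24D1 and 133.8 ± 0.52 CPM in siCtrl, a log2 fold change of -0.68 (adjusted p = 0.000149). Aurka, a mitotic kinase that protects Mycn from the ligase, was at -0.23. Usp36, a nucleolar deubiquitinase, was at 0.45, a call lost without siCtrl 2, siRSL24D1 1 or siRSL24D1 3 (adjusted p = 0.0656 to 0.0733). Of 11 tested, 3 rose (27.3%) and 2 fell (18.2%), against 21.2% and 20.0% of all genes tested, at a median of 0.14. The number that rose was 1 without siCtrl 2 or siRSL24D1 3, and 5 with library totals as the scaling. Protein levels were not measured.

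Of 11 tested genes of LIF and Wnt signalling, which act upstream of Myc in these cells, 3 rose and 1 fell, at a median of 0.03. These counts are 27.3% and 9.1%, against 21.2% and 20.0% of all genes tested. Axin2, a feedback target of Wnt signalling, rose by 0.56 on the log2 scale (adjusted p = 0.00375). Stat3, the factor downstream of LIF, was at 0.03 and did not pass, and Socs3, its feedback inhibitor, was at -0.18, a call lost without siCtrl 1, siCtrl 2 or siRSL24D1 1 (adjusted p = 0.0562 to 0.080). Lifr, the LIF receptor, was at 0.17, a call lost without siCtrl 1, siCtrl 2, siRSL24D1 1 or siRSL24D1 3 (0.138 to 0.144). It was also lost in 6 settings that kept all libraries (0.0520 to 0.375). Lef1, a Wnt effector whose groups overlapped, was at 0.69, a call lost without any of the same 4 libraries (adjusted p = 0.0784 to 0.0992), which left Axin2 as the 1 gene that rose. The number that fell was 0 without siCtrl 1, siCtrl 2 or siRSL24D1 1, and 2 without siCtrl 3.

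**Figure D4:**
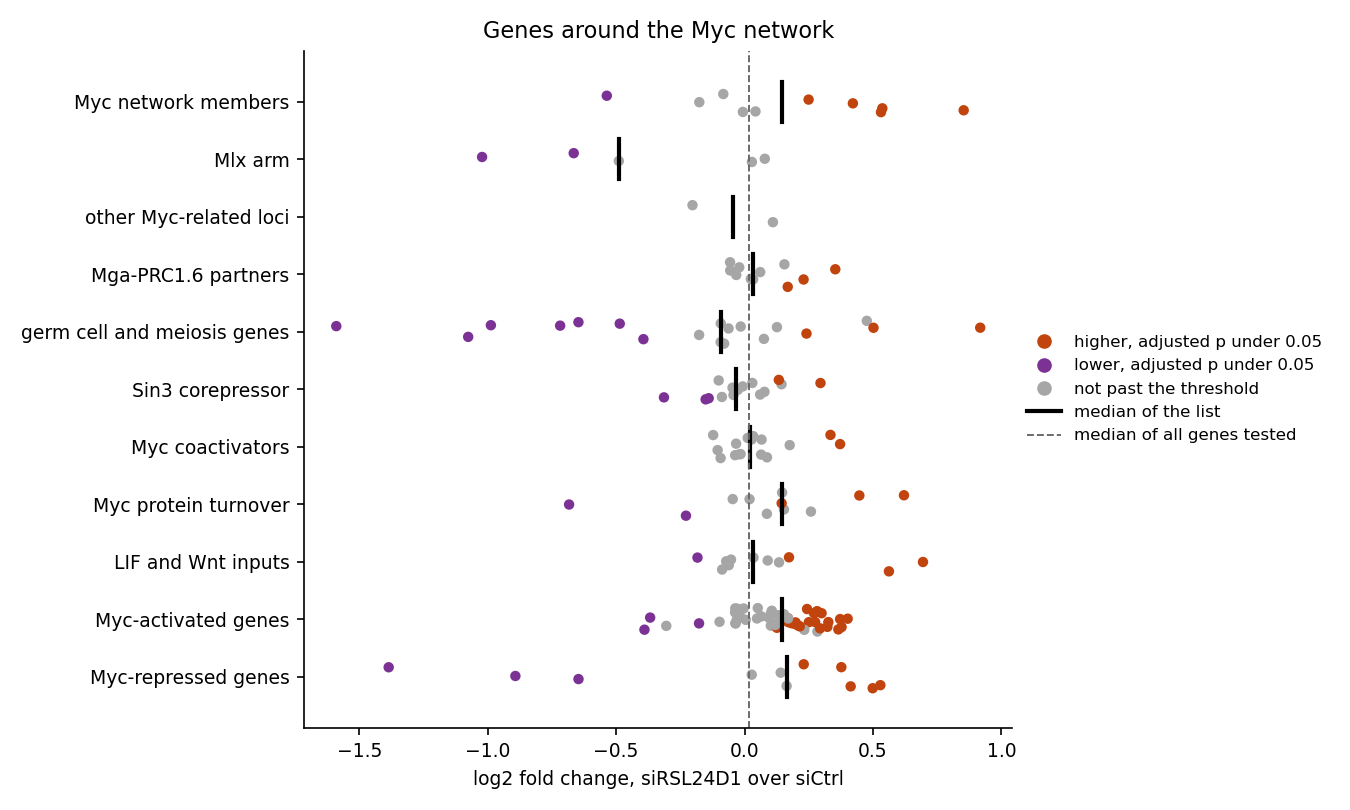
Log2 fold change, siRSL24D1 over siCtrl, of the network genes and of the tested genes in each list around them. Points are genes, coloured by the call at an adjusted p under 0.05, and black lines are medians. The dashed line is the median of all genes tested, at 0.02. The medians of the network genes and of the Myc-activated genes are both at 0.15. Those of the Myc-repressed genes and of the Myc protein turnover genes are close to them, at 0.16 and 0.14.

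The profiles closest to those of Myc and Mycn were sought among 9889 other genes with an average log2 CPM no lower than 3. Clone-based and predicted symbols were left out. Distance was the root mean square difference of log2 CPM over the 6 libraries after centring on the siCtrl mean. The closest genes are named below with their distances. For Myc they were Cdk14, a cyclin-dependent kinase (0.033), Itga8, an integrin subunit (0.034), and Apaf1, the scaffold of the apoptosome (0.036). For Mycn they were Utp20, a factor of the small subunit processome (0.020), Morc2a, a chromatin ATPase (0.020), and Pik3r1, a regulatory subunit of PI3-kinase (0.023). Their log2 fold changes were 0.52, 0.52 and 0.55 for the first set and 0.52, 0.53 and 0.54 for the second. The choice by profile itself makes these values close to those of Myc and Mycn, so they are no separate result.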

How the data were processed

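Per the submitters' processing notes, STAR 2.7.0f and Salmon 0.14.1 were used with GRCm38, and the authors deposited estimated counts per gene symbol, not scaled between libraries. The sources used here do not give the role of each tool, the annotation or the strand setting. Between 21.59% and 22.65% of a library's values were not whole (tolerance 1e-09). Counts were rounded, filtered with filterByExpr (minimum count 10, minimum total 15; 15084 genes left), scaled by TMM and compared by edgeR 4.0.16 with its quasi-likelihood fit in R 4.3.3 (two-sided, no covariate, Benjamini-Hochberg over all genes tested, threshold 0.05), which was tested on simulated data. The simulated counts were drawn from the same kind of model, so that test could not check how well the model fits these data. Common biological variation was 7.48%. Standard errors are the log2 fold change over the root of F. The series' design text calls the triplicates independent, so they were treated as 3 replicates per group.

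Exon lengths are unions of exons of the basic transcripts of GENCODE M21 (22304 symbols matched), and promoter windows come from RefSeq (GRCm38.p6). Alternatives were DESeq2 size factors, library totals, upper quartile, no filter, a filter of 1 CPM in 3 libraries, the DESeq2 1.42.0 Wald test, limma-voom (limma 3.58.1), the replicate number as a block, a loess length correction (span 0.3) with and without it, a threshold of 0.01, counts not rounded, and each library left out. Within a list, the rule named the 2 largest rises and 2 largest falls among called genes whose groups did not overlap; other list genes were named after their values were seen. The members and lists were chosen with earlier results of these data known.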

Additional observations from a re-analysis of the deposited data

How the results depend on the processing

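The calls of Myc, Mycn, Max, Mxd1, Mxd4 and Mxi1 kept their direction and their side of the threshold in all 18 alternatives, and those of Mycl, Mxd3 and Mnt stayed short of it. The number of network genes that fell was 2 under the length correction, with and without the replicate block, since Mga passed there; the cause was not tested. The log2 fold change of Mga was 0.017 with library totals. With 1 library left out it was -0.055 to 0.070 for Mga and -0.091 to 0.297 for Mnt, -0.027 to 0.052 for Mlx, -0.083 to 0.394 for Mlxip and -0.025 to 0.102 for Ncl. Under the length correction, with no block and with the replicate block, Stat3 was at -0.0171 and -0.0168 and Ncl at -0.0342 and -0.0315. At an adjusted p under 0.01, 1886 genes rose and 1867 fell, against 3191 and 3021 at 0.05. With 1 library left out, 2210 to 3356 rose and 2147 to 3285 fell. The difference in the Mycn share was 4.26 to 5.13 points and that in the repressor share -4.25 to -3.09 points with 1 library left out.

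Deviations from the group means of same-numbered libraries correlated at -0.497, 0.473 and 0.627 over 10126 genes. The best match was siCtrl 3 for siRSL24D1 1 (0.495), siCtrl 1 for siRSL24D1 2 (0.734) and siCtrl 3 for siRSL24D1 3 (0.627). With 3 libraries per group the deviations depend on each other, so these values cannot settle whether the numbers pair the samples. With the replicate block 3327 genes rose and 3104 fell, and among the named genes the call of Mlxipl alone changed (adjusted p = 0.0384). Mxd1 and Mxd3, at 101 to 223 estimated counts per library, are the members whose precision the depth limits most.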
